A study of Mus musculus with 42 samples.

Results

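The mouse mitochondrial genome encodes 37 genes, and each of them carries a symbol that starts with mt- in the count table. These 37 symbols, of 40701 in the table, were chosen by that prefix. They fall into 13 messengers, 2 ribosomal RNAs and 22 transfer RNAs. The series measured RNA of the renal cortex of 12-week-old male and female mice after unilateral ureteral obstruction (UUO). The proximal tubule fraction (PT) is RNA bound to beads carrying anti-GFP antibodies, a translating ribosome affinity purification (TRAP) in which a GFP-tagged ribosomal protein pulls down cytosolic ribosomes with their messengers. Its counterpart carries the label total kidney (Total); whether these libraries are the RNA left unbound by the beads is not stated. Groups were the kidney at day 5 of obstruction, the kidney at day 10 and the contralateral kidney, and each of these states held 4 male and 3 female libraries per fraction, 42 in all. The beads were added to a postmitochondrial supernatant, that is, after most mitochondria had been spun out, and the driver and the line of the tagged ribosome are not named in the labels. Nor do the labels give the day of the contralateral kidneys or say that libraries of a group came from separate animals, so p-values measure the spread between these libraries.

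Mitochondrial DNA is transcribed inside the organelle as long polycistronic RNAs from both strands. Transfer RNAs stand between most of the other genes, and their excision releases the messengers and the ribosomal RNAs. The messengers encode core subunits of respiratory complexes I, III, IV and V, and mitochondrial ribosomes translate them within the matrix, apart from the cytosolic ribosomes that TRAP captures. Proximal tubule cells are rich in mitochondria and draw on oxidative phosphorylation for solute transport.

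Libraries held 9.31 to 43.6 M counts, with a median of 18.5 M, and levels are given as counts per M counts (CPM) on a scaled library size. Of the 37 genes, 9 passed the filter on low counts in PT, namely both ribosomal RNAs and 7 messengers, and 19 passed it in Total and across fractions, which added mt-Nd3 and 9 transfer RNAs. Markers of the proximal tubule, 8 of 8, were present in PT at a summed 7196 to 9112 CPM in contralateral kidneys. Genes are said to rise, fall or be called only at an adjusted p under 0.05 together with a 2-fold change, by the quasi-likelihood test of edgeR with Benjamini-Hochberg adjustment. A bracketed value is a log2 fold change with its standard error.

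The counts did not cover the mitochondrial genome evenly. In gene order after GENCODE M21, the 11 neighbours from mt-Ts1 to mt-Nd4l were nearly empty: 6 had no count in any library, and without mt-Nd3 the other 10 summed to 38 of the 7610319 counts on mitochondrial genes. That run holds 6 of the 13 messengers, among them mt-Co2 and mt-Co3, subunits of cytochrome c oxidase, and mt-Atp6 and mt-Atp8, subunits of the ATP synthase. mt-Co2 had 6 counts, mt-Atp6 had 5, mt-Co3 had 11, and mt-Atp8 and mt-Nd4l had none. The 7 messengers outside the run each had at least 154253 counts. In all, 9 genes were at 0 in every library, and the 3 of them outside the run were the transfer RNAs mt-Tw, mt-Ty and mt-Th.

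For the messengers of the run other than mt-Atp8, near-identical nuclear copies are annotated. Each 50-base window of a mitochondrial transcript was looked up in all GENCODE M21 transcripts of other genes, on both strands. The share found elsewhere was 100% for mt-Co2, 99.9% for mt-Co3, 99.5% for mt-Atp6, 98.8% for mt-Nd4l and 98.0% for mt-Nd3. It was 62.2% for mt-Nd4 and 51.1% for mt-Co1, which did receive counts, and 0% for mt-Nd1, mt-Nd6, mt-Cytb and mt-Rnr1. It was also 0% for mt-Atp8, which was empty too. The search covered annotated transcripts only, so 0% does not exclude a copy elsewhere in the nuclear genome. The copies are unprocessed pseudogenes on chromosome 1, and Gm28661, Gm10925, Gm28437 and Gm10222 matched mt-Co2, mt-Atp6, mt-Co3 and mt-Nd4l with 0 differences over the bases compared. These copies received few counts themselves, with 17 for Gm28661, 39 for Gm10925, 50 for Gm28437 and 3 for Gm10222. How reads that match several places were counted is not given in the sources used here, so the empty genes say nothing of RNA levels and are not compared further. The 43 bases shared by the end of mt-Atp8 and the start of mt-Atp6 are printed here because they lie in both genes on the same strand.
mt-Atp8 and mt-Atp6 shared: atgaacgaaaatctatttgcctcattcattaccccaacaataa

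**Figure D1:**
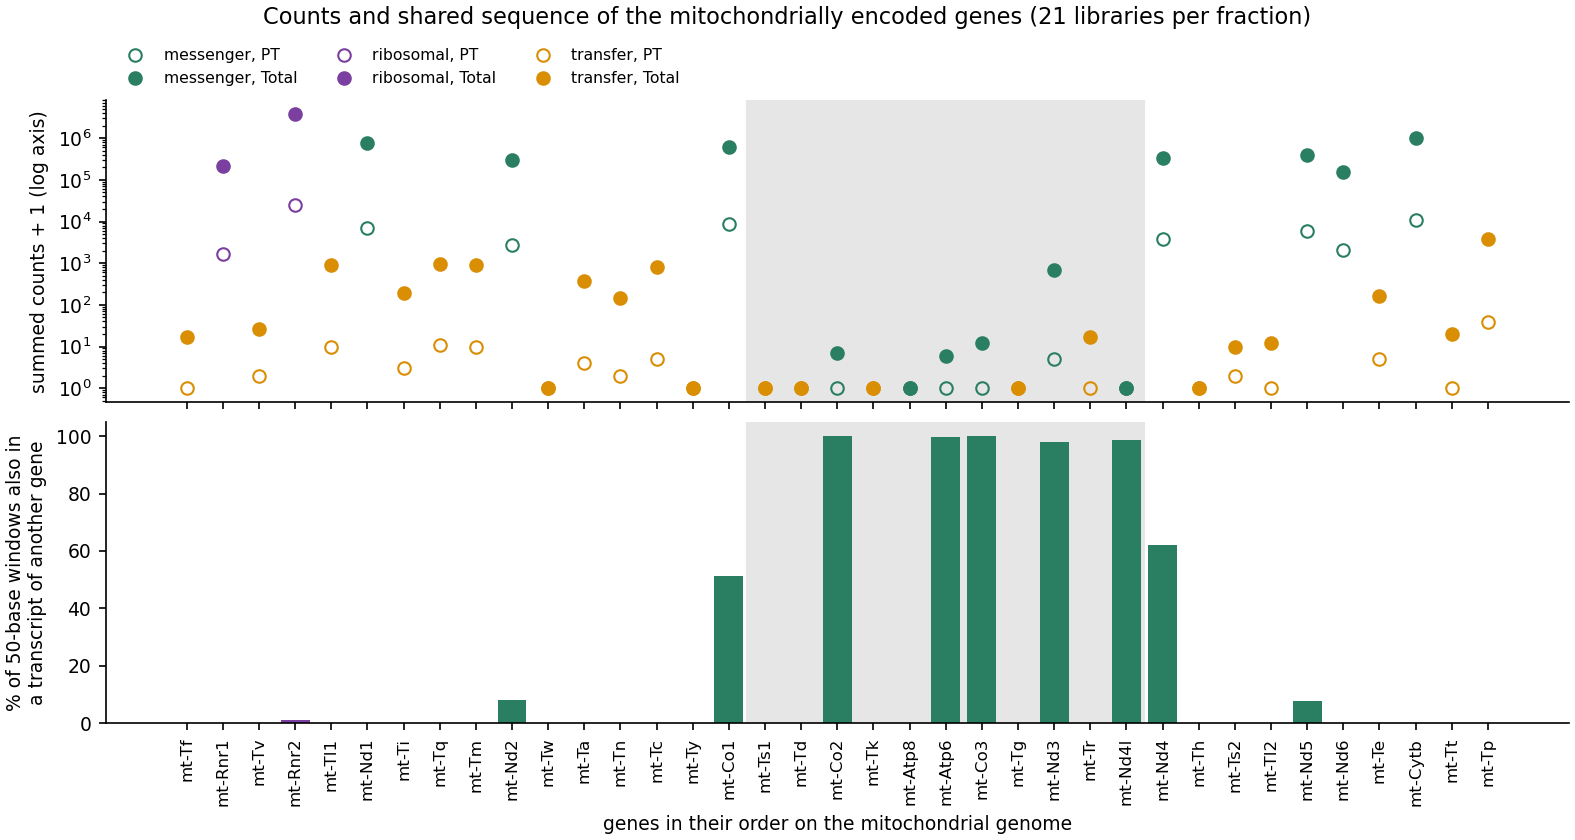
Summed counts plus 1 (upper panel, log axis) of the 37 mitochondrially encoded genes in PT (open) and Total (filled), 21 libraries each, and the percent of 50-base windows found in transcripts of other genes (lower panel), along the gene order. The grey band marks the run of 11 genes from mt-Ts1 to mt-Nd4l, where mt-Nd3 alone exceeds 16 counts and where 5 of 6 messengers share at least 98.0% of their windows.

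mt-Nd3, a complex I subunit, was the exception within the run, and it set libraries apart. Its nuclear copy Gm28438 on chromosome 1 differs from it at 1 of 345 bases compared, T3C, with positions counted from 1 at the start of mt-Nd3. The first 60 bases of both are printed because they hold that difference, which is in capitals.
mt-Nd3: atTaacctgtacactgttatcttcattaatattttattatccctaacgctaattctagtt
Gm28438: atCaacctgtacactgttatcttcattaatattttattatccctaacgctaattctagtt

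In 11 Total libraries mt-Nd3 had 10 to 155 counts and Gm28438 had 0 to 4. In the other 10 the order was turned, with 30 to 459 counts at Gm28438 and 0 to 2 at mt-Nd3. No Total library had appreciable counts at both genes. The first kind comprised the 7 day 5 libraries and replicate 1 of each sex in the day 10 and contralateral groups. The second kind comprised replicates 2 to 4 of the males and 2 and 3 of the females in the same groups. Day 5 can therefore be set against 2 contralateral libraries of its own kind, and PT held too few counts at either gene, 0 to 3 in a library, to be sorted. What divides the libraries was not tested, and results for the other genes are also given within each kind, with PT libraries sorted after the Total library of their sex, state and number.

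**Figure D2:**
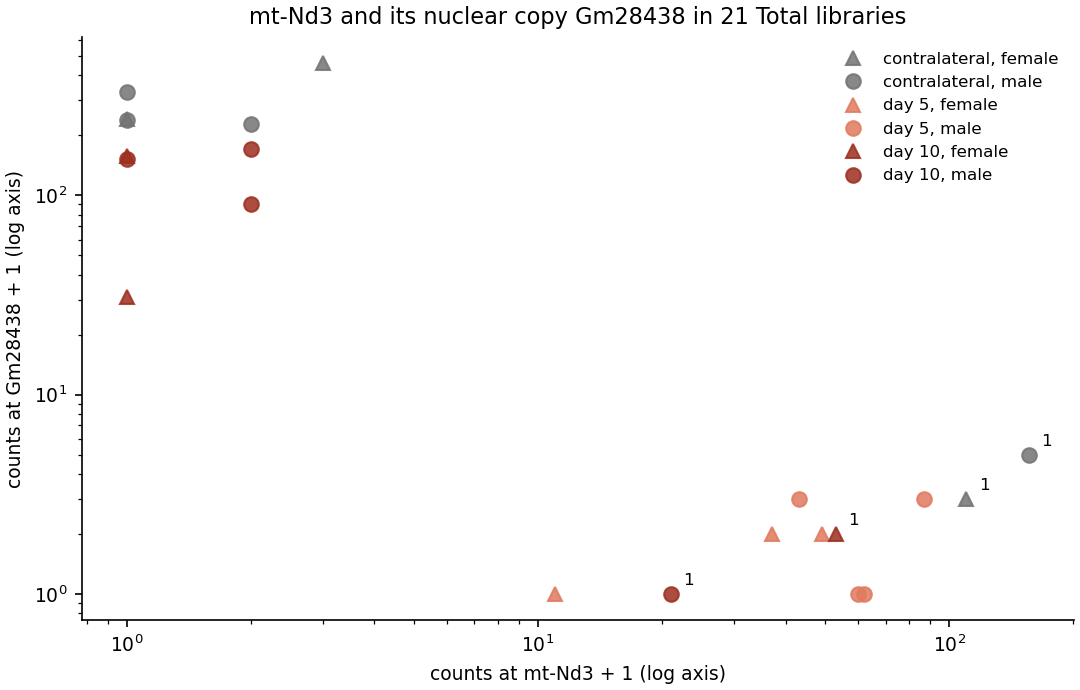
Counts plus 1 at mt-Nd3 (x, log axis) and at its nuclear copy Gm28438 (y, log axis) in the 21 Total libraries, by state (colour) and sex (shape), with replicate 1 of the contralateral and day 10 groups marked 1. The libraries form a group of 11 with 10 to 155 counts at mt-Nd3 and a group of 10 with 30 to 459 counts at Gm28438, and all 7 day 5 libraries are in the first.

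Per length, mt-Cytb, the cytochrome b of complex III, was the most abundant messenger in the deposited RPKM, with 33.1 ± 13.0 in contralateral PT and 4076 ± 995 in contralateral Total (SD, n = 7 each). mt-Nd1, a complex I subunit, followed with 22.3 ± 7.28 RPKM in PT and 3525 ± 586 RPKM in Total, a step smaller than the SD of mt-Cytb in both fractions. mt-Co1, the catalytic core of cytochrome c oxidase, had 17.4 ± 6.24 RPKM in PT and 1647 ± 459 RPKM in Total, and in Total the step from mt-Nd1 exceeded both SDs. Since 51.1% of the windows of mt-Co1 and 62.2% of those of mt-Nd4 lie in other transcripts too, against 0% for mt-Nd1, their RPKM may miss reads, and the part of this in the order of the levels was not tested. In Total, mt-Nd2, mt-Nd6, mt-Nd4 and mt-Nd5 came next at 1451 ± 361, 1409 ± 355, 1275 ± 378 and 1011 ± 263 RPKM, and each step to the next was no larger than the greater SD of the pair. The lower order differed in PT. There mt-Nd6 at 15.9 ± 8.02 RPKM and mt-Nd5 at 11.8 ± 4.68 RPKM stood above mt-Nd4 at 10.3 ± 4.35 RPKM and mt-Nd2 at 9.72 ± 4.37 RPKM. Each step was again no larger than the greater SD of its pair. These SDs are between libraries and do not measure the spread of a step within a library. In every contralateral PT library mt-Cytb stood above mt-Nd1, mt-Nd6 above mt-Nd5 and mt-Nd5 above mt-Nd4. In contralateral Total, mt-Nd1 stood above mt-Cytb in replicates 3 and 4 of the males. mt-Nd6 is encoded on the opposite strand from the other messengers, next to mt-Nd5, and since strand in counting is not stated, its reads and those of antisense RNA cannot be told apart. mt-Rnr2, the large ribosomal RNA, reached 53.7 ± 20.4 RPKM in PT and 10433 ± 3900 RPKM in Total. The small ribosomal RNA mt-Rnr1 had 6.03 ± 2.45 RPKM in PT and 1107 ± 402 RPKM in Total, less than mt-Rnr2 by more than both SDs.

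PT was nearly free of mitochondrially encoded RNA. In contralateral kidneys the messengers made up 0.0102 to 0.0258% of PT counts (median 0.0121%), against 1.16 to 2.10% of Total counts (median 1.63%). Ribosomal RNAs were at 0.00661 to 0.0167% in PT, against 0.967 to 2.76% in Total. The ranges were separated by well over an order of magnitude, and the same held at day 5, with all classes together at 0.00917 to 0.0172% of PT counts and 0.663 to 2.17% of Total counts, and at day 10, with 0.00761 to 0.0151% and 0.721 to 2.45%.

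**Figure D3:**
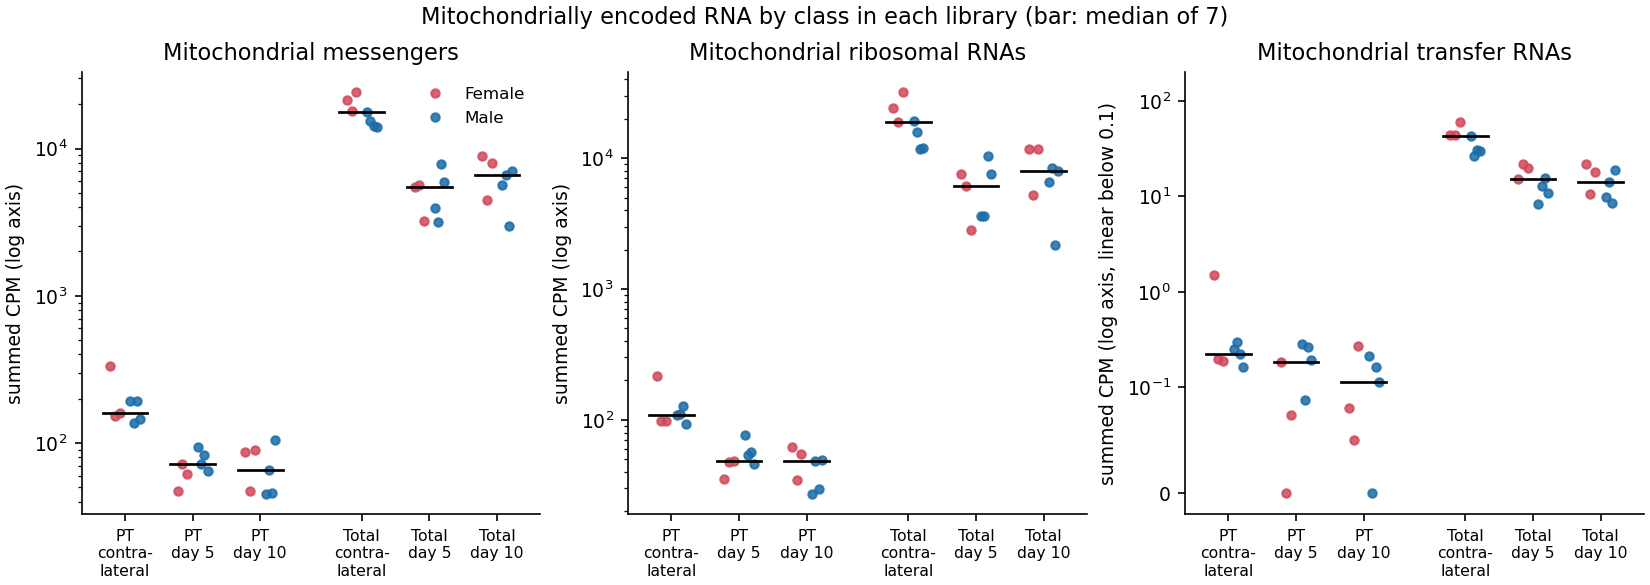
Summed CPM of mitochondrial messengers, ribosomal RNAs and transfer RNAs (log axes, linear below 0.1 for transfer RNAs) in each library of PT (left) and Total (right) by state and sex, with bars at the median of 7. PT messengers lie between 44.9 and 334 CPM and Total messengers between 2987 and 24071 CPM. For messengers and ribosomal RNAs the obstructed kidneys sit below the contralateral ones in both fractions. For transfer RNAs they do so in Total, while in PT the states overlap.

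mt-Rnr2 had 87.7 to 202 CPM in contralateral PT (median 101.0), against 10938 to 29730 CPM in contralateral Total (median 17787). It was lower in PT in every library (-7.28 ± 0.37 and an edgeR adjusted p of 1.41e-18), and only 4 of 17110 genes tested had a lower fold change. mt-Rnr1 was at 5.74 to 14.1 CPM in PT and 794 to 2101 CPM in Total, and fell by nearly the same amount (-7.23 ± 0.37). Of the messengers tested, mt-Nd1 had the lowest fold change, with 22.5 to 47.5 CPM in PT against 3183 to 4942 CPM in Total (-7.00 ± 0.30). mt-Nd2 (-6.93 ± 0.34) and mt-Nd4 (-6.66 ± 0.32) came next. mt-Cytb was at 35.5 to 90.6 CPM in PT and 3772 to 6872 CPM in Total (-6.64 ± 0.29). mt-Co1 was at 25.6 to 60.8 CPM in PT and 1984 to 3644 CPM in Total (-6.25 ± 0.29), and mt-Nd6 at 7.59 to 22.2 CPM in PT and 588 to 1045 CPM in Total (-6.17 ± 0.34).

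All 19 mitochondrial genes that were tested were called lower in PT in contralateral kidneys, where 22.9% of all genes tested were. The counts were also 19 of 19 at day 5 (23.8% of all genes) and at day 10 (23%). The 9 transfer RNAs and mt-Nd3 passed the filter through Total alone, so for them the count shows no more than the filter does. Transfer RNAs had 0 to 18 counts in a PT library and 81 over all of PT, with none in 2 libraries, against 8291 over all of Total. mt-Tp, the proline transfer RNA and the most abundant of them, gave 37 of the PT counts and 3804 of the Total counts. At day 5 the fold changes of the 9 genes tested in both fractions ran from mt-Rnr2 (-6.88 ± 0.37) to mt-Co1 (-5.91 ± 0.28), and at day 10 from mt-Rnr2 (-7.47 ± 0.38) to mt-Co1 (-6.06 ± 0.29).

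The nuclear-encoded partners of these genes did not share the difference. Of 34 respiratory chain subunits made from nuclear genes on cytosolic ribosomes, 34 were tested, none was called in contralateral kidneys, and their median fold change was 0.54, beside -6.44 for the 8 mitochondrial messengers tested and -0.07 for all genes. The range of the 34 was 0.16 to 0.99, so every one had a fold change above 0. Proteins of the mitochondrial ribosome, listed by gene symbol, had a median of 0.52. Of 75 tested, 2 were called higher, Mrps34 (1.36 ± 0.28) and Mrpl50 (1.06 ± 0.11), and none lower, beside 1.16% of all genes called higher. The 23 genes of mitochondrial transfer RNA charging had a median of 0.45 with none called. Among 33 genes of mitochondrial transcription and RNA processing, Slirp, which stabilises mitochondrial messengers, was called higher (1.01 ± 0.19), with a median of 0.42. Of 13 regulators of mitochondrial biogenesis, Esrrb, an orphan nuclear receptor, was called lower (-1.96 ± 0.22).

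Other RNAs lower in PT give a scale. Markers of the loop, distal tubule and collecting duct summed to 108 to 211 CPM in contralateral PT against 1945 to 5564 CPM in contralateral Total, and 8 of 8 were called lower with a median of -4.51. Macrophage markers (median -3.54), fibroblast markers (-3.88) and endothelial markers (-4.09) were also lower in 8 of 8, and none of these markers was at 0 in a group. Rn7sk, a nuclear noncoding RNA, was lower as well (-5.25 ± 0.57). Of the 8 proximal tubule markers, 0 were called higher in contralateral PT than in Total, with a median of 0.756 and a range of -0.569 to 0.995. At day 5 and day 10, 5 and 6 of them were called higher. Gm42418, a locus that overlaps ribosomal RNA sequence, took 2.07 to 4.16% of contralateral PT counts and 2.61 to 6.35% of contralateral Total counts, and passed no test (-0.05 ± 0.38, adjusted p = 0.938). It was the highest of 8 tested loci that resemble mitochondrial genes or cytosolic ribosomal RNA. Of these 8, 6 were called lower in contralateral PT, with a median of -5.40 and a lowest value of -8.03. Only 2 loci of that list passed the filter in PT, so for the others the count shows little more than the filter does. The part that the removal of mitochondria from the supernatant, the bead selection or carry-over had in the residual PT signal was not tested. Within the libraries sorted by Gm28438 the median of the messengers was -6.82 in contralateral and -6.25 in day 10 kidneys, and within those sorted by mt-Nd3 it was -6.19 at day 5.

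**Figure D4:**
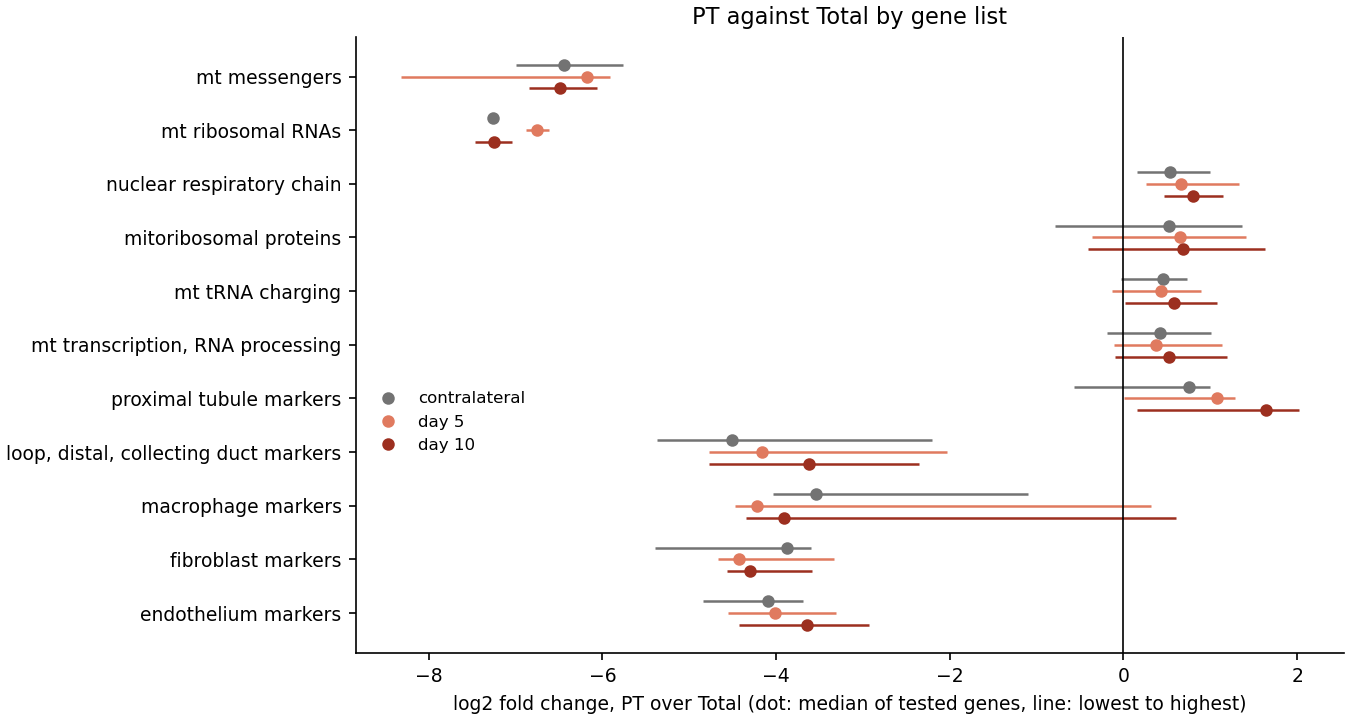
Median log2 fold change of PT over Total (dots) with the lowest and highest gene (lines) for each gene list among tested genes, in the contralateral, day 5 and day 10 states. Medians of mitochondrial messengers lie between -6.49 and -6.18, those of ribosomal RNAs between -7.26 and -6.75, those of markers of other cell types between -4.51 and -3.54, and those of the 4 nuclear-encoded mitochondrial lists between 0.37 and 0.80.

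The residual mitochondrial RNA of PT was lower in obstructed kidneys at day 5. The 9 genes tested, both ribosomal RNAs and 7 messengers, were all called lower than in contralateral PT, where 12.4% of all genes tested were. For each of the 9 the 7 obstructed libraries lay below the 7 contralateral ones. The share of all genes without overlap was not counted, in this or the later comparisons. By edgeR, 8768 of the 14932 genes tested here had an unadjusted p under 0.05. Messengers summed to 47.6 to 93.8 CPM at day 5 (median 71.9), against 138 to 334 CPM in contralateral PT (median 161). mt-Nd6 fell furthest, to 2.00 to 4.36 CPM at day 5 (median 2.99) against 7.59 to 22.2 CPM in contralateral PT (median 8.42; -1.91 ± 0.29, edgeR adjusted p = 1.15e-05). mt-Nd1 fell least, to 9.64 to 17.8 CPM against 22.5 to 47.5 CPM (-1.16 ± 0.23, adjusted p = 0.000208). mt-Cytb fell to 12.7 to 22.3 CPM at day 5 against 35.5 to 90.6 CPM in contralateral PT (-1.48 ± 0.23), and mt-Co1 to 12.2 to 21.6 CPM against 25.6 to 60.8 CPM (-1.20 ± 0.23). The ribosomal RNAs followed the messengers. mt-Rnr2 was at 34.4 to 71.4 CPM at day 5 and 87.7 to 202 CPM in contralateral PT (-1.29 ± 0.21), and mt-Rnr1 at 1.04 to 5.30 CPM and 5.74 to 14.1 CPM (-1.36 ± 0.30).

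At day 10 the 9 genes were again lower than in contralateral PT, beside 12% of all genes tested. Messengers summed to 44.9 to 106 CPM (median 65.3). Of the 9 genes, 8 had no overlap with the contralateral libraries, a count not made over all genes. mt-Nd6 fell to 1.89 to 5.34 CPM at day 10, against 7.59 to 22.2 CPM in contralateral PT (-1.85 ± 0.29, adjusted p = 1.36e-05). mt-Co1, which overlapped, was at 10.1 to 26.7 CPM at day 10 and 25.6 to 60.8 CPM in contralateral PT (-1.11 ± 0.23, adjusted p = 0.000384). mt-Rnr2 was at 25.7 to 58.4 CPM (-1.50 ± 0.21) and mt-Rnr1 at 1.35 to 3.51 CPM (-1.59 ± 0.30). mt-Cytb was at 11.4 to 28.0 CPM (-1.56 ± 0.23). Between day 10 and day 5 of PT none of the 9 was called, beside 0.442% of all genes, and none had an unadjusted p under 0.05 or was called by DESeq2 or limma-voom. The differences ran from mt-Rnr1 (-0.23 ± 0.30) to mt-Nd2 (0.11 ± 0.29).

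One contralateral library weighed on the smaller changes. Replicate 1 of the contralateral females had the highest PT level of each class, with 334 CPM of messengers where the other 6 contralateral libraries had 138 to 194 CPM. Without it mt-Nd1 missed the fold threshold at day 5 (-0.95), as did both mt-Nd1 and mt-Co1 (-0.92) at day 10. At day 10 mt-Co1 also missed it without replicate 2 of the day 10 females (-0.96). With library size alone as the scale the median of all genes was 0.52 at day 5 and 0.49 at day 10, beside 0.05 on both days with the scaled library size. Then 5 and 7 of the 9 passed, each of them lower. Within the libraries sorted by mt-Nd3 the median of the messengers was -2.10 at day 5, beside -1.70 over all libraries. That set holds 2 contralateral libraries, and 1 of them is the high replicate 1 of the females. Within the libraries sorted by Gm28438, which leave that replicate out, the median was -1.25 at day 10, beside -1.72 over all libraries. There 7 of 9 genes were called, and mt-Nd1 and mt-Co1 (-0.97) were not.

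In Total the fall was of like size and reached the transfer RNAs. At day 5, 17 of 19 genes tested were called lower, beside 13.3% of all genes. Of the 19, 13 had no overlap with the contralateral libraries, a count not made over all genes. Messengers summed to 3169 to 7878 CPM at day 5 (median 5475), against 13957 to 24071 CPM in contralateral Total (median 17835). mt-Nd4, a complex I subunit, fell furthest of the messengers, to 223 to 581 CPM against 1387 to 3115 CPM (-2.34 ± 0.24, adjusted p = 1.69e-08). mt-Co1 fell to 578 to 1490 CPM at day 5 against 1984 to 3644 CPM in contralateral Total (-1.57 ± 0.21), and mt-Cytb to 948 to 2204 CPM against 3772 to 6872 CPM (-1.84 ± 0.22). mt-Nd6 was at 106 to 365 CPM at day 5 and 588 to 1045 CPM in contralateral Total (-2.04 ± 0.26). mt-Rnr2 was at 2602 to 9790.0 CPM at day 5 and 10938 to 29730 CPM in contralateral Total (-1.72 ± 0.32), and mt-Rnr1 at 172 to 519 CPM and 794 to 2101 CPM (-2.02 ± 0.28).

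Of the 9 transfer RNAs tested in Total, 8 were called lower at day 5. Their level, summed over all transfer RNAs, was 8.26 to 21.8 CPM at day 5 against 26.2 to 60.7 CPM in contralateral Total. mt-Ti, the isoleucine transfer RNA, fell furthest, to 0 to 0.363 CPM against 0.619 to 2.99 CPM (-2.86 ± 0.46, adjusted p = 1.27e-05). mt-Tp fell less than 2-fold, with 3.53 to 13.4 CPM at day 5 and 11.1 to 24.7 CPM in contralateral Total (-0.91 ± 0.23, adjusted p = 0.00186), and was called without the day 5 male of replicate 3 (-1.04). The 9 are 66 to 75 bases long, and how far the column clean-up and library preparation keep RNA of that size was not tested. mt-Nd3 was not called (-0.07 ± 1.21). Its contralateral libraries were of both kinds described above, and within the kind sorted by mt-Nd3 it was lower at day 5 (-1.76, adjusted p = 0.000358), with 2 contralateral libraries.

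At day 10, 18 of the 19 were called lower in Total, beside 13.8% of all genes. Of the 19, 12 had no overlap with contralateral Total, a count not made over all genes. Messengers summed to 2987 to 8897 CPM (median 6652). mt-Nd4 again fell furthest of the messengers, to 232 to 687 CPM at day 10 against 1387 to 3115 CPM in contralateral Total (-1.94 ± 0.24, adjusted p = 2.14e-07), and mt-Co1 least, to 505 to 1688 CPM against 1984 to 3644 CPM (-1.28 ± 0.21). mt-Rnr2 overlapped, with 2054 to 11295 CPM at day 10 and 10938 to 29730 CPM in contralateral Total (-1.29 ± 0.31, adjusted p = 0.00105). mt-Rnr1 did not overlap, at 124 to 510 CPM and 794 to 2101 CPM (-1.76 ± 0.27). mt-Cytb was at 891 to 2501 CPM (-1.49 ± 0.22) and mt-Nd6 at 124 to 428 CPM (-1.70 ± 0.25). Among transfer RNAs mt-Ti fell most, to 0.0490 to 0.354 CPM at day 10 against 0.619 to 2.99 CPM (-2.74 ± 0.47), and mt-Ta, the alanine transfer RNA, least (-1.03 ± 0.36, adjusted p = 0.0177). mt-Ta lost its call without any 1 of 6 libraries, with values from -0.99 to -0.81, the weakest without replicate 1 of the contralateral males. mt-Tp (-1.06 ± 0.24) lost its call without any 1 of 3 libraries, with -0.93 to -0.95. mt-Nd3 was not called (-1.82 ± 1.35), but was without replicate 1 of the day 10 females, one of the libraries with counts at mt-Nd3.

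**Figure D5:**
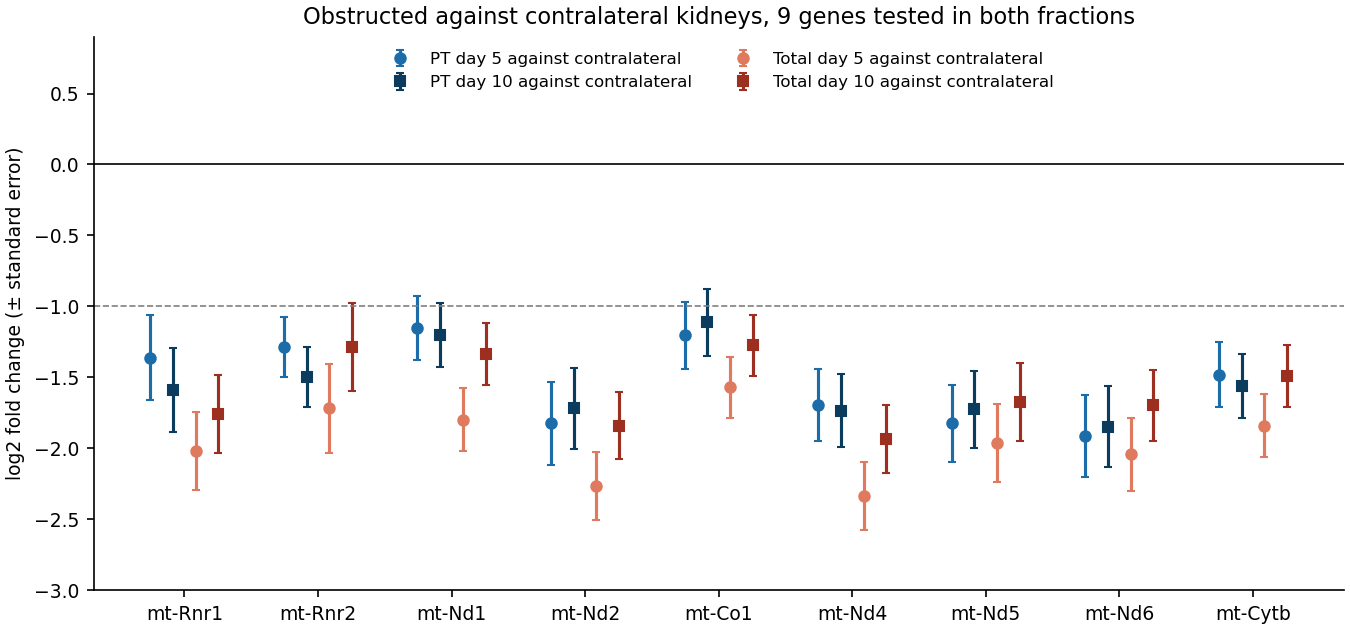
Log2 fold change ± standard error of the 9 genes tested in both fractions, at day 5 (circles) and day 10 (squares) against contralateral kidneys, in PT (blue) and Total (red), with dashes at a 2-fold fall. Every point lies below -1, from -1.11 for mt-Co1 in PT at day 10 to -2.34 for mt-Nd4 in Total at day 5.

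No mitochondrial gene was called between day 10 and day 5 of Total, beside 0.393% of all genes, by edgeR, DESeq2 or limma-voom. At an unadjusted p under 0.05 there was 1, mt-Nd1, with 720 to 1908 CPM at day 10 and 662 to 1663 CPM at day 5 (0.46 ± 0.22, adjusted p = 0.414 over all genes). The other differences ran from mt-Nd3 (-1.75 ± 1.34) to mt-Ta (0.49 ± 0.38), and all 19 genes overlapped between the days. Within the libraries sorted by Gm28438 the messengers at day 10 summed to 2987 to 7967 CPM against 13957 to 24071 CPM in contralateral Total, 5 libraries each. Within those sorted by mt-Nd3, day 5 held 3169 to 7878 CPM in 7 libraries against 17835 and 21340 CPM in 2 contralateral ones. The ranges were therefore separate within each kind too. Under scaling by library size alone the median of all genes was 0.48 at day 5 and 0.42 at day 10, beside 0.04 and 0.06 with the scaled library size. Then 15 of 19 were called at day 5 and 12 of 19 at day 10, each lower.

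Marker RNAs of cell types moved with obstruction. The 8 proximal tubule markers summed to 433 to 822 CPM at day 5, 293 to 960.0 CPM at day 10 and 4044 to 5856 CPM in contralateral Total, and 8 of 8 fell on both days. In PT they summed to 853 to 1534 CPM at day 5, 733 to 3176 CPM at day 10 and 7196 to 9112 CPM in contralateral libraries, again 8 of 8 lower. Macrophage markers rose in Total in 8 of 8 on both days, beside 19.2% and 20.9% of all genes called higher at day 5 and day 10, to 538 to 1253 CPM at day 5 and 1037 to 2028 CPM at day 10 against 54.3 to 130 CPM in contralateral Total. Fibroblast markers rose in 8 of 8 as well, to 740 to 983 CPM at day 5 and 754 to 2098 CPM at day 10 against 57.6 to 149 CPM. Markers of the loop, distal tubule and collecting duct fell in Total in 5 of 8 at day 5 and 7 of 8 at day 10, beside 13.3% and 13.8% of all genes. Endothelial markers rose there in 2 and 3 of 8 and fell in 1 on each day. In PT, where 7 of 8 macrophage markers rose on both days beside 18.2% and 19.7% of all genes, they summed to 100.3 to 179 CPM at day 5 and 131 to 347 CPM at day 10, against 9.50 to 15.2 CPM in contralateral PT. Fibroblast markers rose in PT in 7 of 7 tested on both days. Endothelial markers rose in PT in 4 of 8 at day 5, where 1 fell, and in 6 of 8 at day 10. The part of these shifts in the fall of mitochondrial RNA was not tested, and in bulk libraries fewer cells of a type and less RNA per cell cannot be told apart.

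Lars2, the mitochondrial leucyl-tRNA synthetase, is a nuclear gene whose counts varied widely between libraries of a group. They ran from 2862 to 26533 CPM in PT at day 5 and from 1715 to 30815 CPM in Total at day 10. The same PT libraries had 13797 and 90517 CPM of Gm42418, the locus described above. The same Total libraries had 20701 and 132610 CPM of it. In both groups they were also the lowest and highest in Gm42418. How far counts at Lars2 come from its messenger was not tested. Lars2 was not called for obstruction in PT at day 5 (-0.20 ± 0.70) or day 10 (0.79 ± 0.70). Nor was it called in Total at day 5 (-0.54 ± 0.46) or day 10 (0.99 ± 0.46). Replicate 3 of the day 10 males had both the lowest Lars2 and the lowest messengers of that Total group, 1715 CPM and 2987 CPM. The next lowest in messengers had high Lars2, with 4479 CPM of messengers and 25775 CPM of Lars2 in replicate 2 of the day 10 females, and 5695 CPM and 24564 CPM in replicate 1 of the males. With the Lars2 level as a covariate the same 9 genes in PT, and the same 17 and 18 in Total at day 5 and day 10, were called. What the Lars2 counts measure was not tested, so that fit cannot speak for the synthetase.

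The make-up of the messenger pool differed slightly between states. mt-Co1 took 22.2 to 25.6% of PT messenger counts at day 5 and 21.6 to 30.5% at day 10, against 18.2 to 21.7% in contralateral PT. In Total it took 17.9 to 23.5% at day 5 and 16.8 to 20.0% at day 10, against 14.2 to 17.1% in contralateral Total. In both fractions its day 10 range overlapped the contralateral one. mt-Nd4 moved the other way in Total, at 6.89 to 8.51% at day 5 and 7.47 to 8.63% at day 10, against 9.58 to 12.9%. Of the windows of mt-Co1 and mt-Nd4, 51.1% and 62.2% lie in other transcripts too, and the part of this was not tested. mt-Cytb held 27.4 to 31.4% of Total messenger counts at day 5 and 26.6 to 30.0% in contralateral Total, ranges that overlap. The ratio of mt-Rnr2 to mt-Rnr1 counts had a median of 20.0 in Total at day 5 and 20.6 at day 10, against 14.4 in contralateral Total, and the ranges of each day overlapped the contralateral one. The ratio of mt-Nd6 to mt-Nd5 counts, 2 genes annotated on opposite strands, was 0.356 to 0.402 in Total at day 5, 0.302 to 0.468 at day 10 and 0.348 to 0.484 in contralateral Total. Ribosomal RNA to messenger counts stood at 0.557 to 0.804 in contralateral PT and 0.830 to 1.32 in contralateral Total, ranges that do not overlap. These shares and ratios were not tested.

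The fall in PT and the fall in Total were not shown to differ. In the test of the difference, PT minus Total, none of the 19 genes was called at day 5, beside 4.27% of all genes, and none at day 10, beside 5.76%, and 0 and 1 had an unadjusted p under 0.05. DESeq2 called mt-Nd3 on both days and limma-voom called mt-Ti at day 5, genes with 4 and 2 counts in all of PT. For mt-Nd1 the difference was 0.62 ± 0.32 at day 5 and 0.16 ± 0.32 at day 10, and for mt-Co1 0.34 ± 0.32 and 0.19 ± 0.32. mt-Rnr2 had 0.40 ± 0.39 and -0.19 ± 0.39, and mt-Nd6 0.11 ± 0.40 and -0.11 ± 0.38. Over the 9 genes tested in both fractions the standard errors ran from 0.31 to 0.41.

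Sex made no called difference. With the states averaged, 0 of 9 genes were called between females and males in PT, beside 4.09% of all genes and with none at an unadjusted p under 0.05, and 0 of 19 in Total, beside 2.26% of all genes and with 3 at an unadjusted p under 0.05. In PT the differences ran from mt-Nd5 (-0.08 ± 0.22) to mt-Rnr1 (0.10 ± 0.24). The methionine transfer RNA mt-Tm was at 6.75 to 9.41 CPM in contralateral females and 3.34 to 4.52 CPM in contralateral males, without overlap. Its difference over the states was 0.86 ± 0.21 (adjusted p = 0.0134), under the 2-fold threshold, and that of mt-Tp was 0.62 ± 0.19 (adjusted p = 0.0434). Without replicate 4 of the day 10 males mt-Tm passed (1.01). mt-Rnr2 had 17787 to 29730 CPM in contralateral females and 10938 to 18122 CPM in contralateral males (0.41 ± 0.25 over the states, adjusted p = 0.349).

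Nuclear genes of the respiratory chain fell with the mitochondrial ones, by less in the median. In PT 23 of 34 were called lower at day 5 (median -1.16) and 24 at day 10 (median -1.12), where 12.4% and 12% of all genes were, and none was higher. These medians stand beside medians of -1.70 and -1.72 for the mitochondrial messengers and of 0.05 over all genes on both days. The complex I subunit Ndufa10 (-1.61 ± 0.32) and Atp5b, the catalytic subunit of the ATP synthase (-1.50 ± 0.22), led at day 5. The succinate dehydrogenase subunit Sdhb (-1.47 ± 0.19) and Cycs, cytochrome c (-1.47 ± 0.19), led at day 10. In Total 26 of 34 fell at day 5 (median -1.31) and 28 at day 10 (median -1.30), beside 13.3% and 13.8% of all genes, with Cycs lowest on both days (-1.86 ± 0.20 and -1.95 ± 0.20).

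For the genes that make and translate mitochondrial RNA, several counts lay near or under the share of all genes called lower, which was 12.4% and 12% in PT and 13.3% and 13.8% in Total at day 5 and day 10. Of 33 genes of mitochondrial transcription and RNA processing 3 fell in PT at day 5 (median -0.38), led by Polrmt, the mitochondrial RNA polymerase (-1.13 ± 0.16), and Grsf1, an RNA granule protein (-1.12 ± 0.13), and 1 fell at day 10, Grsf1 (-1.19 ± 0.13; median -0.52). In Total 1 fell at day 5, Grsf1 (-1.41 ± 0.12), and 3 at day 10. Proteins of the mitochondrial ribosome had medians of -0.39 and -0.41 in PT and -0.51 and -0.52 in Total at day 5 and day 10. Of the 74 tested, 2 fell in PT on each day, led by Mrps36 (-1.16 ± 0.17 at day 5). Mrps36 is on this list by its symbol alone, which does not make it a protein of that ribosome. In Total 5 and 6 fell, led by Mrpl12 (-1.29 ± 0.18 and -1.41 ± 0.18), while Mrpl23 rose at day 5 in PT (1.37 ± 0.31) and Total (1.09 ± 0.32). Of 23 genes that charge mitochondrial transfer RNAs, 4 fell in PT on each day and 5 in Total on each day, led by Gatb (-1.45 ± 0.16 in PT at day 5), part of the complex that makes glutaminyl-tRNA. Of 20 translation factors, 7 and 4 fell in PT and 5 and 6 in Total at day 5 and day 10, led by Letm1 (-1.76 ± 0.14 in PT at day 5), an inner membrane protein.

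Of 13 regulators of mitochondrial biogenesis, 5 fell in PT at day 5 and 6 at day 10, beside 12.4% and 12% of all genes. In Total 7 of 13 fell on each day, beside 13.3% and 13.8% of all genes. Sirt3, the main mitochondrial deacetylase, fell in PT at day 5 (-2.47 ± 0.26) and day 10 (-2.18 ± 0.26), as did Ppara, the receptor that drives fatty acid oxidation genes (-1.85 ± 0.24 and -2.16 ± 0.25). In Total Sirt3 (-2.31 ± 0.23) and Ppara (-2.09 ± 0.19) led at day 5, and Ppara (-2.72 ± 0.20) and Sirt3 (-2.29 ± 0.23) at day 10. Pprc1, a coactivator related to PGC-1, rose at day 5 in PT (1.11 ± 0.19) and in Total (1.12 ± 0.16).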

How the data were processed

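RNA of 42 libraries was sequenced, and the authors deposited raw counts per gene symbol and RPKM for the same libraries. Per the submitters' processing notes, the tools were STAR 2.0.4b, Subread and featureCounts 1.4.5; genome build, annotation, strand and the handling of multiply mapped reads are not given in the sources used here. The deposited RPKM were checked against the counts: CPM over RPKM gave 1 length per gene within a relative deviation of 0.000429, and those of mitochondrial genes were within 0.0830% of GENCODE M21. RPKM were used for levels between genes only.

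The count table was fitted in edgeR 4.0.16 under R 4.3.3: filterByExpr by group, TMM factors and a robust quasi-likelihood fit with 1 mean per sex, state and fraction, within PT, within Total, or over all libraries for comparisons across fractions. Sexes were averaged at equal weight. A call needed a Benjamini-Hochberg adjusted p under 0.05 over all genes tested and a 2-fold change. The standard error is the log2 fold change over the square root of its F. Printed CPM use TMM-scaled library sizes of all 42 libraries. Tests were checked on simulated counts.

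The members, gene lists, comparisons and alternatives were chosen with earlier results of these data known. Genes named are mt-Rnr1, mt-Rnr2, mt-Nd6, mt-Co1, mt-Cytb, mt-Atp6 and mt-Atp8; per comparison and class the highest and lowest fold change; per class the highest RPKM; and per list at most 2 called members each way, and Lars2. Gm42418, Rn7sk and those of the empty run were named after their values were seen, as were the sorting by mt-Nd3 and Gm28438 and the Lars2 covariate. Replicate numbers were taken as pairs where every number's correlation of deviations exceeded 0.1: PT with Total in contralateral (0.288 to 0.439) and day 10 kidneys (0.193 to 0.677), and day 10 with contralateral in Total (0.153 to 0.357). The main fit did not use pairs. A replicate block was fitted as an alternative in every comparison of states or fractions, whether or not this rule was met. Sequences and gene order come from GENCODE M21. DESeq2 1.42.0 and limma-voom (limma 3.58.1) were alternatives.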

Additional observations from a re-analysis of the deposited data

Results flagged for a closer look

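Among 48 sets of 4 male libraries, 2 held a library far from the other 3, and chance gives about 1 such set in 20. Replicate 4 of the contralateral males had 6.05 CPM of mt-Rnr1 in PT, where the other 3 had 7.22 to 7.35 CPM. Replicate 3 of the day 10 males had 505 CPM of mt-Co1 in Total, where the other 3 had 1140 to 1176 CPM.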

How the results depend on the processing

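The counts of called genes stayed within 1.5 times under other scaling factors, no filter, DESeq2, limma-voom, the compared groups alone and the added terms, except as follows. A filter of 5 CPM in 3 libraries, under which fewer genes are tested, called 12 in PT against Total in each state (19 without it), 10 in Total at day 5 (17) and 11 at day 10 (18). Library size alone called 5 of 9 in PT at day 5. For the difference between fractions DESeq2 called 1 gene on each day and limma-voom 1 at day 5, against 0. Between the sexes in Total the adjusted p alone called 2, and leaving out single libraries gave 0 to 1. limma-voom turned mt-Nd3 in Total at day 5 round, to 3.04 (adjusted p = 0.0147, against -0.07), and the cause was not tested. Leaving out single libraries gave 17 to 19 in contralateral, 19 in day 5 and 18 to 19 in day 10 kidneys for PT against Total, 8 to 9 and 7 to 9 in PT at day 5 and day 10, and 16 to 18 and 15 to 19 in Total. With the replicate block, the counts were 19 in each state for PT against Total, 9 and 9 in PT and 17 and 18 in Total, so the block changed no call count. For day 5, and between the states of PT, the numbers had not met the rule for pairs. There the block says nothing of a pairing. Depth limits PT, where transfer RNAs had 0 to 18 counts per library.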
